A study of Danio rerio with 6 samples.

Results

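The 246 long non-coding RNAs (lncRNAs) described here were selected on a mean of 0 FPKM in control cells, and each was above 0 in cold acclimated cells. FPKM is a fragment count scaled to the length of the transcript and to the size of the library. They made up 2.94% of the 8363 assembled lncRNAs in the deposited table (95% Wilson interval 2.60% to 3.33%). The control value chose them, so the step from 0 to the cold value is a description and was not tested. The cells were ZF4, a fibroblast-like line from zebrafish embryos, with no genetic change named. RNA came from 3 samples of cells at 28°C (control) and 3 samples of cells kept at 18°C for 30 days (cold acclimated), in the same medium. The labels number them as replicates and do not say whether each was a separate culture. Total RNA was sequenced after removal of ribosomal RNA, with a stranded kit, and the reads were placed on the genome build GRCz10. The table gave levels only as the authors' mean of each group, so no value of a sample and no spread between samples can be given. No test between the groups could be made from these means. The authors' own comparison of the groups was deposited as well and was left out here. How deeply each library was sequenced cannot be read from the table. A mean listed at 0 does not show that the RNA was absent. Bulk RNA cannot tell fewer cells of a type from less RNA per cell. The table holds lncRNAs only, so markers of the labelled fibroblast type could not be checked.

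lncRNAs are transcripts, longer than the classes of small RNAs, without a long open reading frame. Many are spliced and carried by loci near or inside protein-coding genes, some act on the transcription of those neighbours, and others work on RNA or protein elsewhere in the cell. Many are transcribed at a low rate and in a restricted set of cells or conditions. At a spliced locus an assembler can build several transcript models that differ by a few nucleotides at an end or a splice site, and fragments that fit more than 1 model are then divided among them.

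Of the 246 lncRNAs, MSTRG.9442.1 was the only member for which the study designed qRT-PCR primers. The study also reported its relative level by qRT-PCR, with a predicted target gene and independent replicates, and that measurement was not used here. MSTRG.9442.1 lies on chromosome 17 (15706740 to 15707265) as a single exon of 526 nt, and the gene named there is bach2a, which encodes a transcriptional repressor. Its mean was 3.05 FPKM in the cold. Its primer pair is shown because it is the direct handle on a transcript of this list, in lower case throughout since no part stands out.
MSTRG.9442.1 forward primer: cgactctctgtggtcgttaaa
MSTRG.9442.1 reverse primer: ggaggccatgatggacaaa
The forward primer has 21 nt and the reverse primer 19 nt, with 47.6% and 52.6% G and C.

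Most of the 246 lncRNAs were short and lay near 0.5 FPKM in the cold. The authors kept transcripts above 0.5 FPKM in at least 1 sample, and a lncRNA at 0 in control cells could pass only through the cold group. The level near 0.5 FPKM is thus partly set by that filter and is not read as a trait of the members. Their median in the cold was 0.577 FPKM (95% interval of the median over transcripts 0.540 to 0.599), with quartiles of 0.482 and 0.840 FPKM and a range from 0.330 to 101 FPKM. At most 0.5 FPKM was listed for 79 of them, at most 1 FPKM for 196, and only 1 was above 10 FPKM. The median length was 259 nt (95% interval 249 to 270 nt), and 158 members (64.2%) were under 300 nt, against 23.6% of all assembled lncRNAs. A single exon was listed for 174 members, 48 had 2 exons, 14 had 3, and 10 had 4 to 6. The share with 2 or more exons, 29.3%, was that of the whole table, 29.8%. Members with 1 exon had medians of 0.526 FPKM and 242.5 nt, and none was longer than 829 nt. Members with 2 or more exons had medians of 0.890 FPKM and 442.5 nt, and they spread over a median of 3.90 kb of genome, up to 116 kb.

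Because FPKM is a level per length, the same value stands for fewer fragments on a shorter transcript. FPKM multiplied by the length in kb, called FPM here, is scaled to library size only and can be added up over the transcripts of a locus. The median FPM of the members in the cold was 0.146 (95% interval 0.137 to 0.157), against 0.462 for the lncRNAs above 0 in both groups. Between 0.1 and 0.2 FPM lay 133 of the members, 24 lay lower and 30 lay above 1 FPM. Some members of unlike length had the same FPM, such as 0.0982 for MSTRG.24559.1 (204 nt) and MSTRG.26503.1 (220 nt). Another value, 0.118, was shared by MSTRG.10775.1 (200 nt) and MSTRG.29328.1 (273 nt). Values this low can rest on a few fragments, and the group means do not show from how many samples these came. The 246 lncRNAs together held 1.08% of the FPKM summed over the table in the cold, and 30.0% of that share came from 1 transcript at gfra2a.

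**Figure D1:**
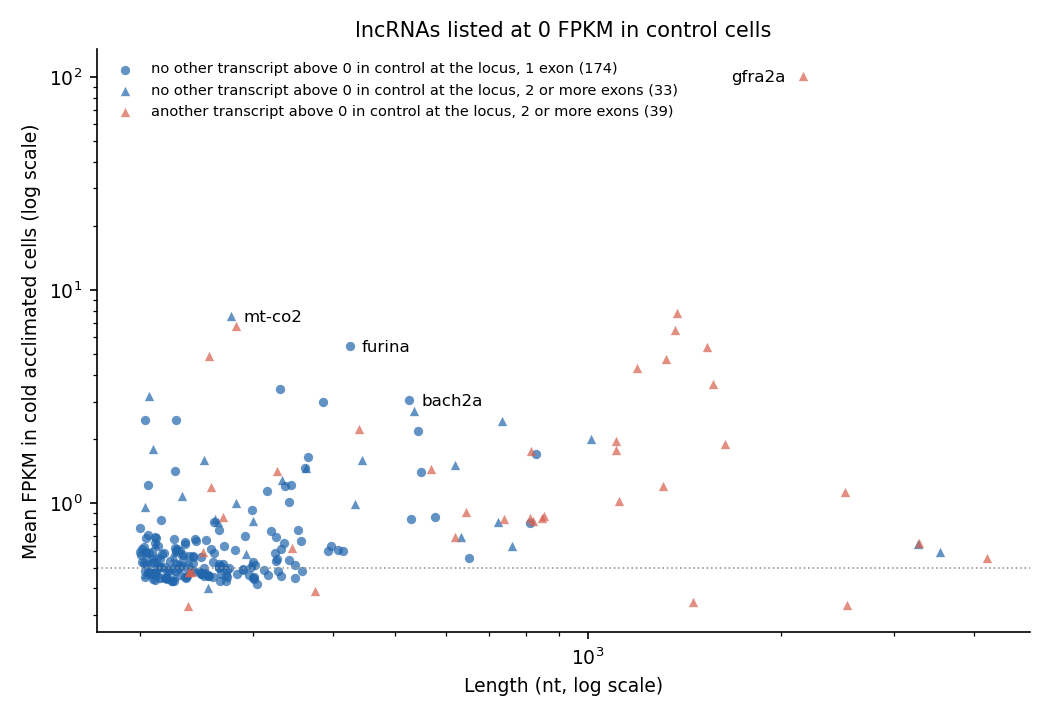
Length in nt (x axis, log scale) against the authors' mean FPKM in the cold (y axis, log scale) for the 246 lncRNAs at 0 in control cells, with circles for 1 exon, triangles for 2 or more exons, and a dotted line at 0.5 FPKM. The 174 transcripts with 1 exon crowd between 200 and 300 nt near 0.5 FPKM, while the 39 with a detected transcript at the same locus (red) are all spliced and reach 101 FPKM.

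The members were compared with the 7749 lncRNAs that were above 0 in both groups, within classes of cold FPKM and with the classes weighted as in the members. At a similar cold level the members were shorter, with a median length of 259 nt against 515 nt. The levels were not equal inside the lowest class, with a median of 0.464 FPKM for the members and 0.245 FPKM for the others. The others could pass the authors' filter through control cells and the members only through the cold, so this class sets unlike rows side by side. Against lncRNAs within 5% of the cold FPKM of each member the comparison length was 487 nt. In the class of at most 0.5 FPKM the median lengths were 241 nt (95% interval 230 to 253 nt) and 468 nt (448 to 489 nt). In the class above 0.5 to 1 FPKM they were 254 nt (235 to 269 nt) and 475 nt (455 to 493 nt). A similar FPKM was not a similar number of fragments, with medians in that class of 0.152 FPM for the members and 0.337 FPM for the others. Above 2 FPKM the intervals of the 2 groups of lncRNAs overlapped, with 22 members there. Above 5 FPKM, with 7 members, the members had the longer median, 1367 nt against 860.5 nt. Transcripts are not replicates of a condition, so no test was made on these shares and the intervals cover counting over transcripts only.

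Splicing differed less. Of the members, 29.3% had 2 or more exons (95% interval 23.9% to 35.2%), against 24.5% of lncRNAs of similar cold level. The direction of this difference turned when a locus was counted once, with 17.9% against 19.5%, and among transcripts alone at their locus, with 13.4% against 17.1%. By class the shares were 13.9% against 15.5% at most 0.5 FPKM, 23.9% against 20.7% up to 1 FPKM, 64.3% against 37.6% up to 2 FPKM, 60.0% against 58.0% up to 5 FPKM and 85.7% against 66.7% above. The intervals separated only in the class above 1 to 2 FPKM, with 28 members.

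The table named a gene for 103 members (41.9%, 35.9% to 48.1%), against 37.2% at similar cold level. The second value lies inside the interval of the first. Members with a named gene had a median of 0.599 FPKM in the cold, and those without had 0.568 FPKM, with overlapping intervals of the median.

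**Figure D2:**
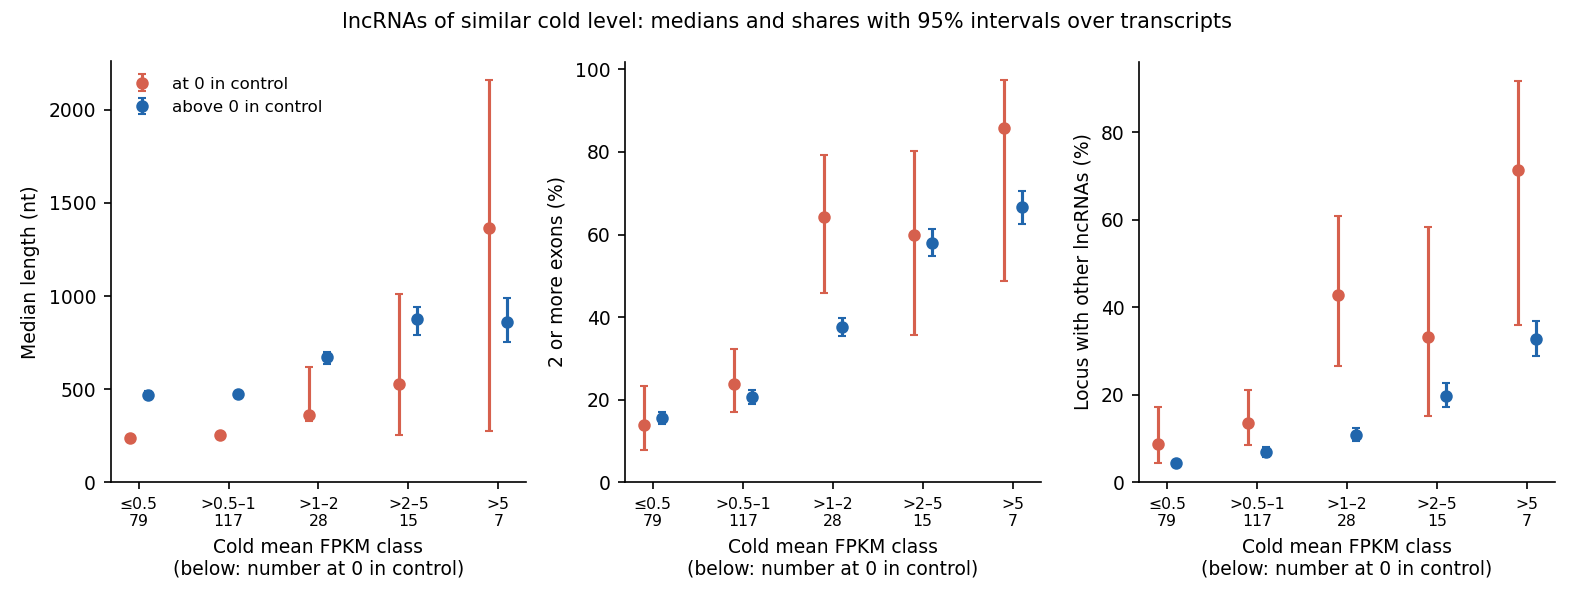
Median length in nt, share with 2 or more exons and share at a locus with other lncRNAs (y axes) by class of mean cold FPKM (x axis, with the number of members), for lncRNAs at 0 (red) and above 0 (blue) in control cells, with 95% intervals over transcripts. The lncRNAs at 0 in control were shorter below 1 FPKM, at 241 and 254 nt against 468 and 475 nt, and more often shared a locus.

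The share of lncRNAs listed at 0 in control cells fell with length. It was 9.40% of the 1159 lncRNAs of 200 to 249 nt (7.86% to 11.2%) and 6.01% of the 815 of 250 to 299 nt. It was 2.25% from 300 to 499 nt, 1.10% from 500 to 999 nt and 0.866% of the 2309 lncRNAs of 1000 nt or more (0.561% to 1.33%). For the 368 lncRNAs at 0 in the cold group, measured in the same way, the share went from 12.1% in the shortest class to 1.47% in the longest. They had a median length of 277 nt (95% interval 265 to 294 nt), and 20.9% of them had 2 or more exons. Short length and a value of 0 thus went together in both groups, and the part of length in these zeros was not tested. By FPM in the cold, the share at 0 in control cells was 2.09% of the 1151 lncRNAs at most 0.1 FPM (1.41% to 3.08%). It was 10.8% of the 1227 between 0.1 and 0.2 FPM (9.22% to 12.7%), 2.06% up to 0.5 FPM and 1.03% of the 682 above 5 FPM. A lncRNA at 0 in control cells had to pass the authors' filter of 0.5 FPKM through the cold group. Others could pass it through control cells and lie near 0 in the cold. The shares by FPM are thus partly set by that filter. Neither the low share in the lowest class, the peak between 0.1 and 0.2 FPM nor the fall above it is read as a result. A short transcript passes the filter on fewer fragments. The filter thus bears on the shares by length as well, and its part was not tested.

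**Figure D3:**
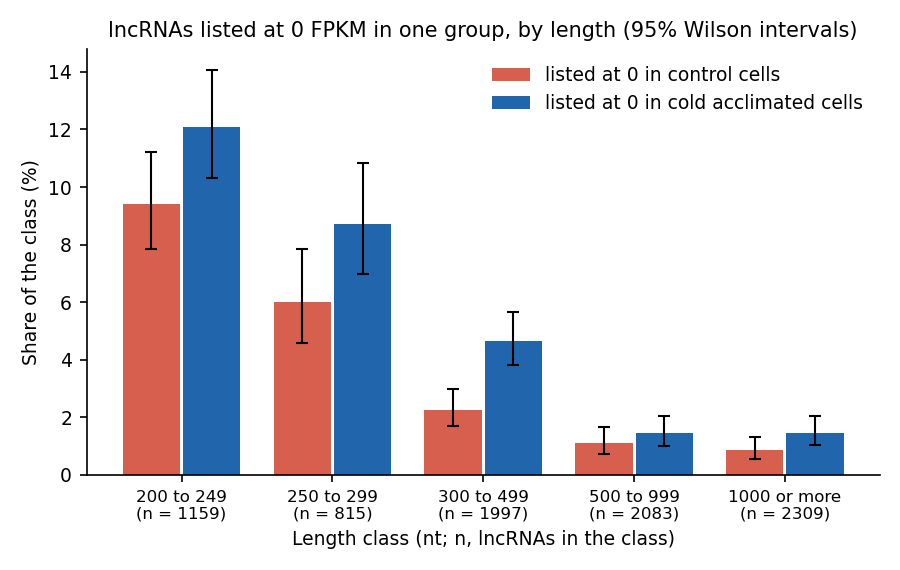
Share of the assembled lncRNAs in each length class (x axis, nt) that were listed at 0 FPKM in control cells (red) or in the cold (blue), in percent with 95% Wilson intervals. Both shares fall with length, from 9.40% to 0.866% in control and from 12.1% to 1.47% in the cold.

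A value of 0 for a transcript was not always a value of 0 for its locus. The 246 members lay at 237 loci. At 204 of these loci every listed transcript was at 0 in control cells, and 207 members were of this kind, 201 of them the only transcript of their locus. At the other 33 loci, with 39 members, another transcript was detected in control cells, above 0.5 FPKM for 38 of the 39 members and above 10 FPKM for 10. Together 45 members (18.3%, 14.0% to 23.6%) shared a locus with another transcript, against 8.07% at similar cold level. With each locus counted once, by its highest transcript in the cold, the shares were 5.19% and 2.43%.

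The members at detected loci differed from the rest in form. All 39 members at a locus detected in control cells were spliced, while 33 of the 207 others were (15.9%, 11.6% to 21.5%). Of the 207, 201 were the only transcript of their locus, so detection of the locus and its number of transcripts cannot be told apart here. The 39 members had a median length of 820 nt (440 to 1311 nt) against 249 nt (235 to 261 nt). Their median level in the cold was 1.03 FPKM (0.830 to 1.78) against 0.548 FPKM (0.521 to 0.583).

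At the 33 loci the FPM was summed over all listed transcripts. The sum was lower in the cold at 22 loci and higher at 11, and within 2-fold at 25. The median log2 ratio of cold over control was -0.08 (95% interval over loci -0.53 to 0.15). It was -0.31 (-0.53 to -0.19) at the 294 loci with 2 or more transcripts and no member. More than 2-fold higher were 4 of the 33 loci and more than 2-fold lower were 4, against 7.82% and 22.8% of the 294. The rule fixed the direction of the members inside these sums. With the members left out, the median log2 ratio over the 33 loci was -0.66 (-1.03 to -0.23). Members add nothing to the control sums, so leaving them out can only lower this ratio. The members held a median of 29.0% of the cold fragments of their locus, from 1.27% to 79.4%, and more than 50% at 5 loci. Of the 77 other transcripts of these loci, 57 were lower in the cold (74.0%, 63.3% to 82.5%), against 68.7% of all lncRNAs that were no members. The tmbim1 locus held 20 of the 77, and without it, an alternative added later, 41 of 57 were lower (71.9%). Over the 75 other transcripts above 0.5 FPKM, with tmbim1 counted, the median log2 ratio was -0.42, against -0.67 over the table. Of these 75, 18 (24.0%) were more than 2-fold lower and 9 (12.0%) more than 2-fold higher, on the scale of FPKM plus 0.1. The tmbim1 transcripts among the 75 all lay within 2-fold, with log2 ratios from -0.63 to 0.42, and so lower both shares. Over the lncRNAs of the whole table that were no members these shares were 40.2% and 11.5%. The share of higher transcripts was thus near that of the table. All of the 75 lie at loci with 2 or more transcripts, as do only 10.6% of all assembled lncRNAs. These shares were not computed for the transcripts of the 294 loci with no member. The difference from the table in lower transcripts is therefore not read as a trait of the 33 loci.

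**Figure D4:**
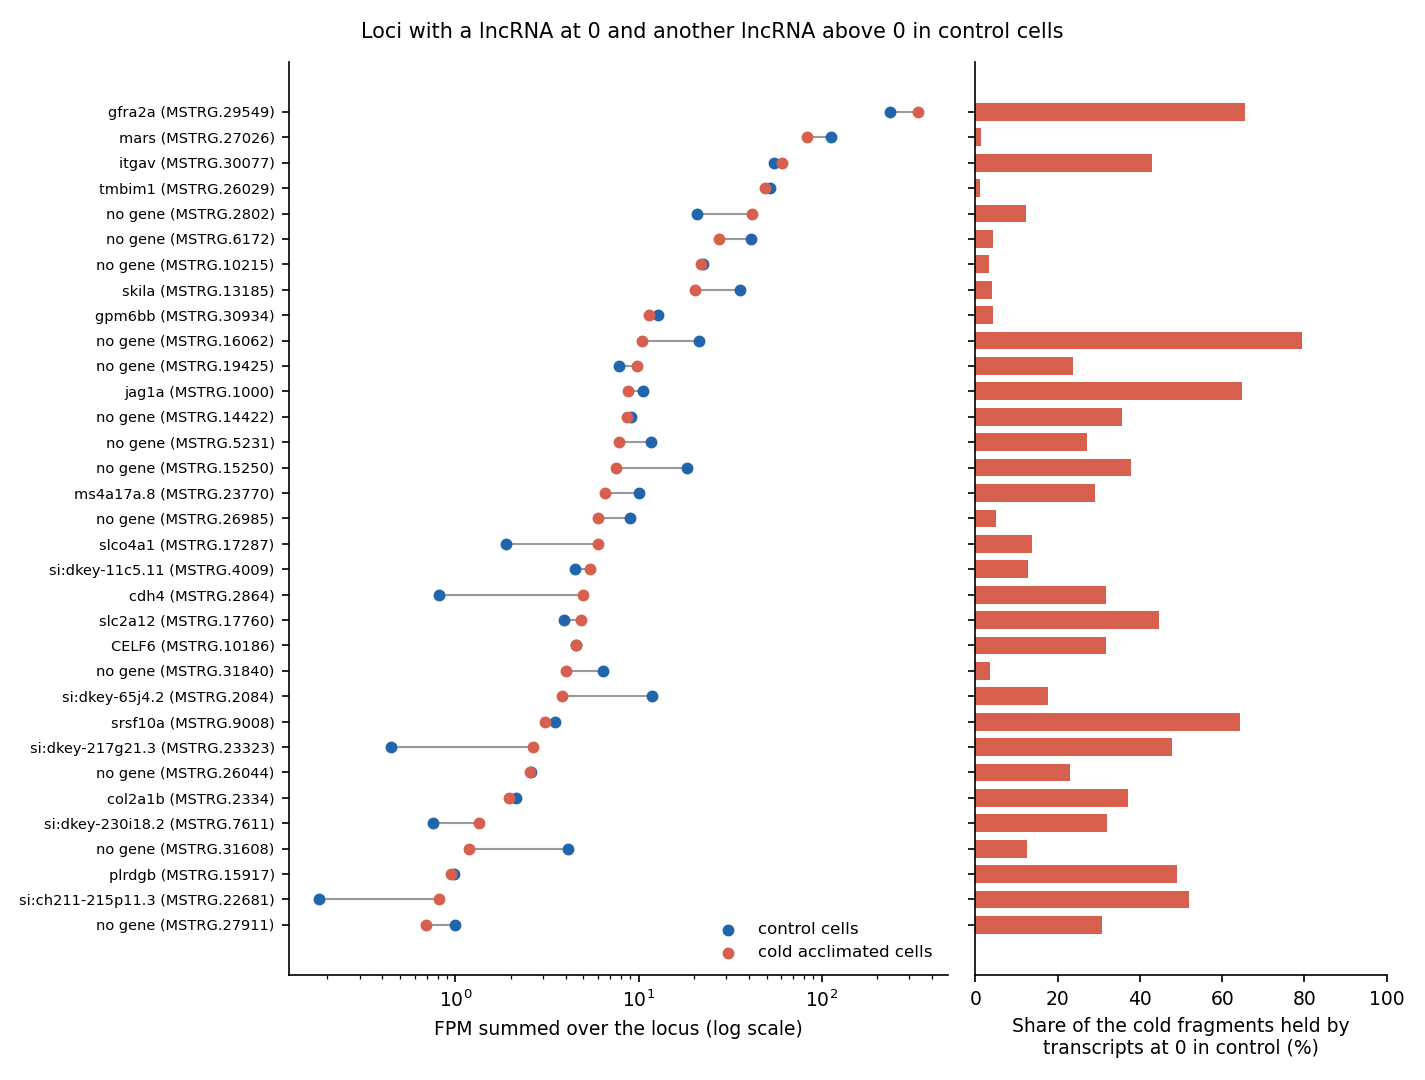
FPM summed over all listed lncRNAs of a locus (left, x axis, log scale) in control (blue) and cold acclimated cells (red), and the share of the cold sum in percent held by transcripts at 0 in control (right), for the 33 loci with a detected transcript in control cells. The sums differ by more than 2-fold at 8 loci only, while the transcripts at 0 in control hold up to 79.4% of the cold sum.

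The highest cold level belonged to MSTRG.29549.5, with 2 exons and 2162 nt on chromosome 8 (42077711 to 42084771), at gfra2a, which encodes a receptor of the GDNF family of growth factors. It was at 101 FPKM in the cold. The other 4 transcripts of the locus were detected in control cells and all were lower in the cold. MSTRG.29549.4 went from 84.7 to 36.7 FPKM, and MSTRG.29549.1 went from 57.2 to 29.6 FPKM. The ends of MSTRG.29549.4 lie within 100 nt of those of the member, but its length, 1610 nt, is 552 nt less. MSTRG.29549.3 went from 15.9 to 11.9 FPKM and MSTRG.29549.2 from 3.70 to 1.94 FPKM. The locus as a whole went from 236 to 334 FPM, a log2 ratio of 0.50, and the member held 65.6% of the cold sum. A second locus of the table at gfra2a, with 5 transcripts and no member, overlaps this one. Of its transcripts, 4 were lower in the cold, with MSTRG.29550.2 going from 70.3 to 48.0 FPKM, MSTRG.29550.6 from 60.8 to 25.5, MSTRG.29550.9 from 45.1 to 16.0 and MSTRG.29550.8 from 10.2 to 4.24 FPKM. The fifth, MSTRG.29550.1, went from 0.108 to 6.04 FPKM. With the member left out, the sum of its locus was lower in the cold, with a log2 ratio of -1.04.

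Transcripts at 0 in control and transcripts lower in the cold also lay side by side at itgav, the gene of the integrin alpha V subunit, which binds extracellular matrix proteins. The locus on chromosome 9 lists 8 transcripts of 3 exons that start at 11624785 and end between 11671296 and 11671373. MSTRG.30077.9, MSTRG.30077.12 and MSTRG.30077.11 were at 0 in control cells and at 7.80, 6.52 and 4.76 FPKM in the cold. Of the others, MSTRG.30077.5 and MSTRG.30077.8 went from 13.5 FPKM to a value of 0 and from 11.9 to 0.000525 FPKM, while MSTRG.30077.6 went from 3.40 to 16.2 FPKM. MSTRG.30077.12 has the same start and end as MSTRG.30077.10, which went from 6.86 to 4.13 FPKM, and their lengths differ by 4 nt. The locus summed to 54.5 FPM in control cells and to 60.4 FPM in the cold (log2 ratio 0.15).

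The highest control levels beside a member were at mars, the gene of methionyl-tRNA synthetase on chromosome 6. MSTRG.27026.1 went there from 99.7 to 72.3 FPKM, and the member MSTRG.27026.2 was at 1.03 FPKM in the cold, 1.39% of the cold fragments of the locus. At ms4a17a.8 on chromosome 4, a gene of the membrane-spanning 4A family, the member MSTRG.23770.2 was at 6.76 FPKM, and MSTRG.23770.1, whose start lies 18 nt away, went from 33.1 to 15.4 FPKM. At a locus on chromosome 14 with no named gene, MSTRG.6172.1 and MSTRG.6172.2 went from 27.7 to 17.4 and from 21.9 to 14.1 FPKM. Its members MSTRG.6172.3 and MSTRG.6172.6 were at 2.24 and 0.865 FPKM. The largest share of a locus was held by MSTRG.16062.1 on chromosome 21 (44675862 to 44677487), with 2 exons, 1531 nt and no named gene. It was at 5.39 FPKM in the cold, while MSTRG.16062.2, whose ends lie 6 and 12 nt away, went from 13.7 to 1.38 FPKM. The sum of that locus was lower, at 21.3 and 10.4 FPM.

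Some of the 39 members with a detected transcript at the locus had nearly the same extent as another model. For 20 of them (51.3%, 36.2% to 66.1%) another transcript of the locus had both ends within 100 nt, against 43.1% of the 764 transcripts at the 294 loci with no member. For 17 (43.6%, 29.3% to 59.0%) such a transcript had the same exon number as well, against 28.8%. These windows were chosen after the values were seen, and they leave length aside. MSTRG.31608.1, of 251 nt, has partners of 451 to 680 nt within 100 nt at both ends. The member MSTRG.10186.1 at CELF6, the gene of an RNA-binding protein of alternative splicing, has the same ends and exon number as MSTRG.10186.2 and is 2 nt shorter. It was at 1.76 FPKM in the cold while MSTRG.10186.2 went from 5.60 to 3.79 FPKM, and the sum of the locus changed by a log2 ratio of -0.01. At jag1a, the gene of a Notch ligand, the ends lie 109 and 56 nt apart, and MSTRG.1000.3 was at 3.62 FPKM while MSTRG.1000.1 went from 6.26 to 1.83 FPKM. The sum there was 10.6 FPM in the control group and 8.76 FPM in the cold group. The jag1a locus was named after its values were seen. How fragments were divided between overlapping models was not tested, and the value of a single transcript at these loci is to that extent uncertain.

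At 4 of the 33 loci the sum was more than 2-fold higher in the cold. At cdh4, the gene of R-cadherin on chromosome 11, the sum went from 0.809 to 4.99 FPM. MSTRG.2864.2 was at 1.21 FPKM there and MSTRG.2864.1 went from 0.356 to 1.50 FPKM. Elsewhere at cdh4, MSTRG.2863.1 went from 3.84 to 4.62 FPKM and MSTRG.2866.1 from 0.750 to 0.713 FPKM. At si:dkey-217g21.3 on chromosome 4 the sum went from 0.445 to 2.65 FPM, with the member MSTRG.23323.2 (257 nt, 2 exons) at 4.92 FPKM. At slco4a1, the gene of an organic anion transporter on chromosome 23, the locus sum went from 1.88 to 5.98 FPM. MSTRG.17287.2 there, with 4 exons, was at 1.44 FPKM. MSTRG.17279.1, at another locus of slco4a1, went from 1.74 to 1.48 FPKM. At si:ch211-215p11.3 on chromosome 4 the locus sum went from 0.181 to 0.814 FPM, and 4 of the 5 transcripts there were members, at 0.330 to 0.479 FPKM. At these 4 loci the sum without the members was more than 2-fold higher as well, with log2 ratios from 1.12 to 2.07. The lowest of these was at si:ch211-215p11.3, where the remaining transcript went only from 0.181 to 0.392 FPM.

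Members with 4 to 6 exons were found at 10 loci. MSTRG.2802.3, with 6 exons over 75.1 kb on chromosome 11 (16959358 to 17034472) and no named gene, was at 4.31 FPKM, beside MSTRG.2802.1, which went from 11.0 to 19.2 FPKM. MSTRG.17760.2, with 5 exons at slc2a12, the gene of a glucose transporter, was at 1.96 FPKM, and MSTRG.17760.1 went from 2.05 to 1.40 FPKM. MSTRG.26029.25 at tmbim1 was 1 of 21 listed transcripts of that locus, at 0.843 FPKM, and held 1.27% of the cold fragments. MSTRG.26044.2, MSTRG.4009.2 and MSTRG.7611.2 were at 0.911, 0.854 and 0.694 FPKM, each with a detected transcript at the locus. MSTRG.4278.1 (5 exons, 445 nt, chromosome 12), MSTRG.30916.1 (4 exons, 204 nt, spread over 116 kb of chromosome 9) and MSTRG.10295.1 (4 exons, 761 nt, chromosome 18) were alone at their loci, at 1.60, 0.965 and 0.630 FPKM. Thus 3 of the 10 most spliced members were the only listed transcript of their locus.

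Among members alone at their locus, the highest was MSTRG.31975.1 on the mitochondrial genome (8670 to 9026), with 2 exons and 278 nt, at mt-co2, the gene of a cytochrome c oxidase subunit. It was at 7.55 FPKM in the cold. The table lists 2 other lncRNAs on the mitochondrial genome, and both were higher in the cold. MSTRG.31961.1 went from 1.21 to 1.74 FPKM and MSTRG.31960.1 from 0.0168 to 30.3 FPKM. All 3 were listed with 2 exons. Whether these models are spliced RNAs, distinct from the transcripts of the mitochondrial genes, was not tested, and they are to that extent uncertain. MSTRG.27441.1, with 1 exon of 425 nt on chromosome 7 (13944857 to 13945281), at furina, the gene of a proprotein convertase, was at 5.49 FPKM. It had the most FPM among the members alone at their locus, at 2.33.

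For the gene groups below, genes were assigned by the first letters of their symbol. These lists are incomplete. Outside them fell hmcn1 of the extracellular matrix, the protein kinase genes PSKH2 and HIPK1 (1 of many), and the transcription factor genes cebp1, zbtb8a and ahrrb. Their members were at 0.418 to 0.580 FPKM. Higher members fell outside as well, such as those at the chloride intracellular channel gene clic4, at 2.00 FPKM, and at the glypican gene gpc5a, at 3.18 FPKM. The counts below hold for the lists as defined, and the roles are those known for these genes or their mammalian counterparts. The lncRNA values say nothing of the level of the genes. Of the 96 different gene names, 66 matched a RefSeq symbol of the assembly GRCz12tu, 65 of them protein-coding genes. Clone-based names such as si:dkey were carried by 16 of the 103 members with a named gene (15.5%, 9.79% to 23.8%), against 21.3% of all lncRNAs with a named gene. The 7 groups together held 33 members (32.0%, 23.8% to 41.6%), against 23.0% of all lncRNAs with a named gene.

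Genes of transporters and pumps held 8 members, 7.77% of those with a named gene (3.99% to 14.6%), against 3.03% of all lncRNAs with a named gene. Besides slc2a12 and slco4a1 they were the sodium-calcium exchanger genes slc8a1b and slc8a4a, and slc35f2l, abch1, atp8b1 and slc13a3. The cold values ran from 0.432 to 1.96 FPKM around a median of 0.616 FPKM. RNA-binding and splicing genes held 3 members, or 2.91% (0.995% to 8.22%) against 0.905%, and all were above 1.7 FPKM. MSTRG.20689.1 at rbfox1, the gene of a splicing regulator, with 1 exon of 543 nt on chromosome 3 (28286234 to 28286776), was at 2.18 FPKM. MSTRG.9008.2 at srsf10a, the gene of a serine and arginine rich splicing factor, was at 1.78 FPKM and held 64.3% of the cold fragments of its locus, whose sum was 3.49 FPM in control cells and 3.07 FPM in the cold. The third of this group was the CELF6 transcript described above. Of each group's own lncRNAs, 10.3% of the 29 at RNA-binding and splicing genes and 8.25% of the 97 at transporter genes were at 0 in control cells. The other groups ran from 2.52% for transcription factors to 5.07% for adhesion and axon guidance. At 0 were 2.94% of the whole table and 103 of the 3204 lncRNAs with a named gene. With counts this small the shares have wide intervals, and the lists were chosen with earlier results of these data known.

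Adhesion and axon guidance genes held 7 members at 4 genes, 3 of them the itgav transcripts, and the others at cdh4, cntnap1 and tenm4. That was 6.80% of the members with a named gene (3.33% to 13.4%) against 4.31%. The list of ion channel and neurotransmitter receptor genes, which left out clic4, held 5 members, all below 1 FPKM. The highest were MSTRG.13682.1 at KCNJ10 (1 of many), the gene of an inward rectifier potassium channel, at 0.866 FPKM, and MSTRG.10884.1 at kcnab1a, the gene of a potassium channel beta subunit, at 0.531 FPKM. The list of kinase, growth factor receptor and GTPase genes held 5, among them gfra2a and MSTRG.5296.1 at prkg1a, the gene of a cGMP-dependent protein kinase, at 0.840 FPKM. It also took in pde4bb, a phosphodiesterase gene, which lies outside the classes named. The transcription factor list held 4, with bach2a the highest and MSTRG.23394.1 at znf985, a zinc finger gene, at 0.710 FPKM. The extracellular matrix list held 1 member, MSTRG.2334.3 at col2a1b, the gene of a type II collagen chain, at 0.855 FPKM, beside MSTRG.2334.1, which went from 2.45 to 0.881 FPKM. Also listed at that locus, MSTRG.2334.2 went from 0.00244 to 0.539 FPKM. For these 5 groups the share among all lncRNAs with a named gene lay between 1.09% and 5.21%, inside the interval of the members' share.

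Other lncRNAs at the same named gene but at another locus existed for 21 members at 19 genes. Of the 36 such lncRNAs that were no members, 8 (22.2%) had a cold mean more than 2-fold above the control mean and 11 (30.6%) more than 2-fold below, against 11.5% and 40.2% over the table. Several of the 36 lie at the same gene, such as the MSTRG.29550 transcripts of gfra2a. Of the 8, MSTRG.29550.1, MSTRG.24898.2, MSTRG.2427.1 and MSTRG.14464.1 are also counted among the neighbours below, so these counts overlap. Members lay at more than 1 locus of the same gene at cdh4 and sult2st3.

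The nearest lncRNA of another locus that was no member was looked up within 50 kb, among those above 0.5 FPKM in a group. Such a neighbour existed for 98 members, at a median distance of 11.7 kb. It was more than 2-fold higher in the cold for 17 members (17.3%, 11.1% to 26.0%), against 11.5% over the table, which lies within that interval. It was more than 2-fold lower for 26 (26.5%, 18.8% to 36.0%), against 40.2%, which lies above it. The median log2 ratio of the neighbours was -0.23 (-0.55 to 0.24), and that of the table -0.67. Neighbours within 10 kb, for 46 members, gave 19.6% and 23.9%, and within 100 kb, for 143 members, 16.1% and 30.8%. Without neighbours that overlap the member the shares were 15.3% and 25.9%. Some members share a neighbour, and over the 91 different neighbours the shares were 17.6% and 28.6%. Neighbours share samples and scaling with the members, and no test was made. The shares over the table are not shares over nearest neighbours, and those of lncRNAs that were no members were not computed. The differences from the table are therefore not read as a trait of the surroundings of the members. The intervals of 19 members overlapped a lncRNA of another locus that was no member, and the table gives no strand by which these could be told apart.

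The members were spread over all 25 chromosomes, with 239 members there, 6 on unplaced scaffolds and 1 on the mitochondrial genome. They made up between 1.28% of the lncRNAs of chromosome 20 (4 of 312) and 5.56% of those of chromosome 11 (14 of 252, 3.34% to 9.11%), with a median of 2.84% over the chromosomes. Chromosome 9 had the most members, 18 of 334 (5.39%, 3.44% to 8.36%), 3 of them the itgav transcripts, and 16 of its 305 loci held a member (5.25%). For chromosomes 9 and 11 the interval lay above the 2.94% of the whole table, and for the other 23 it included that value. With 25 intervals looked at, some can miss that value through counting error alone. With 1 transcript per locus the highest share was that of chromosome 17, at 5.17%. On unplaced scaffolds 1.29% of 466 lncRNAs were members (0.591% to 2.78%). Members at different loci lay within 50 kb of each other in 6 cases, each a pair, so that no longer run of neighbouring members was found.

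**Figure D5:**
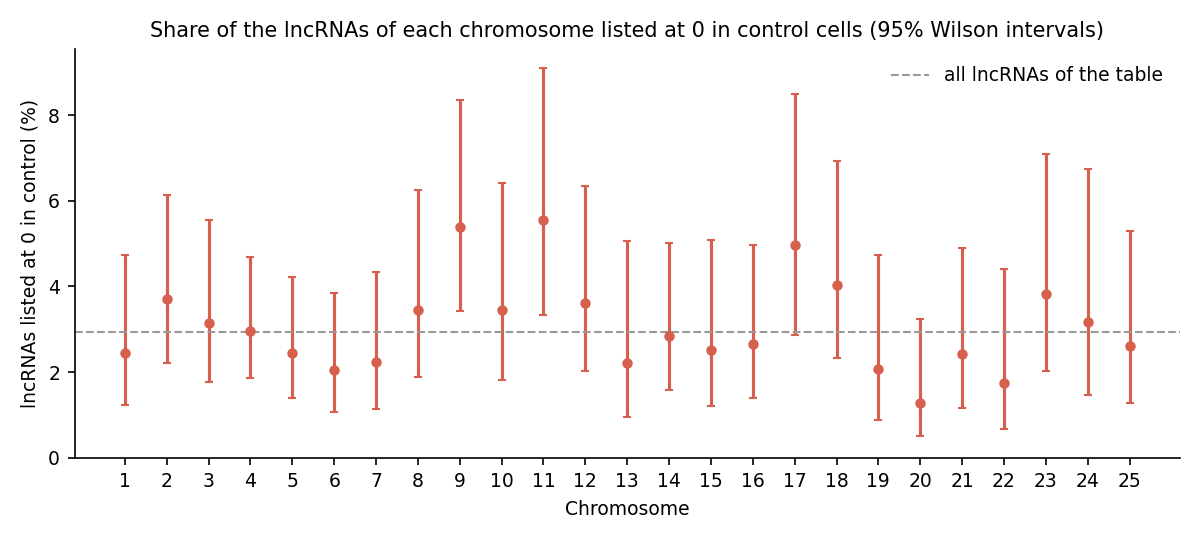
Share in percent (y axis) of the assembled lncRNAs of each of the 25 chromosomes (x axis) listed at 0 FPKM in control cells, with 95% Wilson intervals and a dashed line at the share of the whole table, 2.94%. The points run from 1.28% on chromosome 20 to 5.56% on chromosome 11, and most intervals include the dashed line.

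At the edge of the list the lowest cold values were those of MSTRG.22681.5 at si:ch211-215p11.3, MSTRG.13185.2 at skila, the gene of a SKI family repressor of TGF-beta signalling, and MSTRG.30934.2 at gpm6bb, at 0.330, 0.334 and 0.345 FPKM. All 3 lie at loci with a detected transcript in control cells. Just outside the list, the lowest control values above 0 were 0.000802 FPKM for MSTRG.30846.2, 0.000986 FPKM for MSTRG.6172.4 and 0.00118 FPKM for MSTRG.12545.1, at ak5, the gene of an adenylate kinase. Their cold values were 0.585, 2.68 and 1.53 FPKM, as high as those of members. Above 0 and at most 0.01 FPKM in control cells lay 13 lncRNAs, and above 0 and at most 0.1 FPKM lay 189, so that the border at exactly 0 lies close to other low values.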

How the data were processed

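Per the labels and the study's methods, the authors aligned reads with HISAT2 2.1.0 to GRCz10, assembled transcripts with StringTie 1.3.3, merged them and filtered them for length, coding potential and an FPKM above 0.5 in at least 1 sample. The deposited FPKM values are the authors' mean of each group of 3 samples. The study states its reads over all libraries together, the depth of each library is not given in the sources used here, and no interval that needs it was given. Further deposited columns carry the authors' own group comparison (a log2 ratio with its p-value, adjusted p-value and direction) and were left out.

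Members are the rows with a control FPKM of exactly 0. Members and gene lists were chosen with earlier results of these data known. The lncRNAs above 0 in both groups, used for comparison, were weighted by class of cold FPKM, with edges at 0.5, 1, 2 and 5. Log2 ratios between groups used FPKM plus 0.1, over rows above 0.5 FPKM in at least 1 group. Locus sums used FPM (FPKM times length in kb) without a pseudocount. Intervals are 95% Wilson intervals for shares and come from binomial order statistics for medians. They cover counting error over transcripts only, and no test was made between groups. The weighting, intervals and neighbour search were tested on simulated data.

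Named were the 10 members of highest cold FPKM, the 5 with the most FPM, those with 4 or more exons, those on the mitochondrial genome or with primers, the 2 highest of each gene group, the 3 at each edge of the rule and the 5 shared loci of highest control FPKM. Other names were chosen after their values were seen, namely the loci at jag1a, CELF6, cdh4, the MSTRG.29550 transcripts and the further genes listed by group. So were the lncRNAs given for other loci of cdh4, slco4a1 and si:dkey-217g21.3. Alternatives covered low values, transcripts per locus, scaffolds, the control limit, comparison rows, distance, pseudocount and scaling. Computation used scipy 1.17.1, pandas 2.3.3 and numpy 2.4.6 under Python 3.11.15, and figures used matplotlib 3.10.9.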

Additional observations from a re-analysis of the deposited data

How the results depend on the processing

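No paired analysis was possible because the table gives levels only as a mean per group, and for the same reason no replicate could be left out. The difference of the share with 2 or more exons, 4.75 percentage points above lncRNAs of similar cold level, reversed to -1.58 with 1 transcript per locus and to -3.65 among transcripts alone at their locus, an alternative chosen after seeing the data. The excess of shared loci was 10.2 points and 2.75 with 1 transcript per locus. The difference in median length, -256 nt, was -243 nt with 1 transcript per locus, -328 nt against lncRNAs above 0.5 FPKM in control, -228 nt against lncRNAs within 5% of the cold FPKM of each member and -233 nt among transcripts alone at their locus. The median cold level was 0.676 FPKM for members above 0.5 FPKM. With a control limit of 0.1 FPKM in place of 0 there were 435 members, and the exon and shared locus differences were 0.43 and 5.57 points. Members with a transcript model of nearly the same extent numbered 10 with ends within 10 nt. Of 60 values under alternatives, the other 50 kept their sign and moved by less than their interval or, for counts, by less than 1.5 times. With 1 transcript per locus the chromosome of highest share was 17, at 5.17%. Scaling both groups to a median log2 ratio of 0 removed a median log2 ratio of -0.58, and neighbours were then more than 2-fold higher for 29.6% of members, against 20.8% of the table, and lower for 14.3%, against 25.8%.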
